A study of Mus musculus with 18 samples.

Results

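The genes described here are 10 genes of the Hippo pathway, which were chosen by name from 24360 gene symbols in each count table. In the tables they are YAP1, WWTR1, TEAD1, TEAD4, CTGF, CYR61, ANKRD1, AMOTL2, LATS2 and VGLL3. They are *Yap1* and *Wwtr1* (which encodes TAZ), the factors *Tead1* and *Tead4*, and *Ctgf* (also *Ccn2*), *Cyr61* (also *Ccn1*), *Ankrd1*, *Amotl2*, *Lats2* and *Vgll3*. All 10 were found in both tables and all 10 passed the filter on low counts in both lines. RNA-seq was performed on 168FARN and 67NR cells, which are mouse mammary tumour lines that do not metastasize. Each line was measured as WT, *Kmt2c* KO and *Kmt2d* KO cells, with 3 libraries of each, which gave 6 groups and 18 libraries. The KO cells were sorted pools, made by transient transfection of Cas9 with a pool of sgRNAs against exon 1 of *Kmt2c* or *Kmt2d*, so each KO group is 1 mixed population of edited cells rather than a set of clones. The WT libraries of 168FARN carry the name of a control sgRNA in the count table, and those of 67NR are named WT. All cells grew in the same medium, and no treatment was given. The labels do not say that the 3 libraries of a group came from separately derived KO pools. The study's reporting summary defines replicates of a cell line as collections with 1 passage between them. The p-values thus measure the spread between these libraries, and not between separately derived KO pools.

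In the Hippo pathway, a cascade of kinases that ends in LATS1 and LATS2 phosphorylates YAP and TAZ and keeps them out of the nucleus. YAP and TAZ do not bind DNA themselves, and act as coactivators on TEAD factors, which recognise the sequence GGAATG. *Ctgf*, *Cyr61* and *Ankrd1* are widely used readouts of YAP and TAZ activity, and *Amotl2* and *Lats2* are targets whose products restrain YAP and TAZ. *Vgll3* encodes a cofactor that also binds TEAD factors. Because YAP and TAZ are controlled largely through phosphorylation and localization, their mRNA levels are not a measure of their activity.

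The libraries held 14359760 to 43427382 counts in 168FARN and 40951775 to 79251530 counts in 67NR. The ribosomal RNA gene Rn45s took 28.7% of the counts of replicate 3 of 67NR *Kmt2d* KO, and between 0.458% and 4.96% in the 168FARN libraries. Edits in exon 1 need not lower mRNA, and no targeted gene passed as lower in its own KO (log2 fold change of *Kmt2c* of -0.18 ± 0.49 in 168FARN and 0.63 ± 0.14 in 67NR, and of *Kmt2d* of 0.71 ± 0.36 and 0.22 ± 0.23, ± SE), so the labels were not checked by it. *Kmt2c* passed as higher in both KO groups of 67NR (0.63 with adjusted p = 0.0067 in *Kmt2c* KO, and 0.80 ± 0.14 with adjusted p = 0.0031 for *Kmt2d* KO). The study itself checked the KO cells by sequencing the targeted sites and by immunoblot, and reported mutant reads and less protein in both lines. Its share of mutant reads was lowest for *Kmt2c* in 67NR, so that KO pool was the least completely edited. Levels are CPM (a gene's share of the library's counts) after TMM scaling within a line. Scaling all 18 libraries together moved a library's CPM by at most 3.96%, so the levels of both lines are set side by side. Among markers of other cell types, 5 endothelial markers summed to at most 5.21 CPM. The 6 immune markers summed to between 3.63 and 92.3 CPM in 168FARN and between 21.8 and 84.8 CPM in 67NR. Where this sum was high it was mostly *Cd68*, which ranged from 2.77 to 91.6 CPM within 168FARN *Kmt2c* KO. The 8 epithelial markers summed to between 97.7 and 390 CPM in 168FARN, where *Epcam*, *Krt5*, *Cldn3* and *Cldn7* were at 0 in every group. Almost all of this sum was *Krt8*, whose group means in 168FARN ran from 163 to 212 CPM. *Cdh1*, *Krt18* and *Krt14* had group means of at most 0.105 CPM in that line. The 7 fibroblast or mesenchymal markers summed to between 5833 and 8953 CPM in 168FARN.

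TEAD motifs were looked up in the promoters of the 10 genes, because YAP and TAZ act through TEAD factors. Sites further from the start of transcription were not searched. RefSeq (GRCm38.p6) held a promoter for 7 of the 10 genes, and *Ctgf*, *Tead1* and *Tead4* had no entry. The letters GGAATG were searched on both strands in the 250 bases before the start of transcription. They stood in 6 of these 7 genes (85.7%), against 14.4% of the 27025 genes and 12.6% of the 32851 promoters in the reference. The genes were chosen by name, several of them as known YAP and TAZ targets, so this share is not a test of enrichment. *Ankrd1* held 2 copies, and *Yap1*, *Wwtr1*, *Cyr61*, *Amotl2* and *Vgll3* held 1 each. *Lats2* held none in either of its promoters. A match is a description of the letters and not a measured binding site. The promoters of *Ankrd1*, *Cyr61* and *Amotl2* are shown because these target genes behaved differently from each other in the KO cells, and that of *Wwtr1* because this gene rose in the KO cells of 67NR. Each is written 5′ to 3′ on the strand of its gene, with GGAATG, or CATTCC where the motif lies on the other strand, in capitals.
Ankrd1, chr19:36119845-36120094, minus strand: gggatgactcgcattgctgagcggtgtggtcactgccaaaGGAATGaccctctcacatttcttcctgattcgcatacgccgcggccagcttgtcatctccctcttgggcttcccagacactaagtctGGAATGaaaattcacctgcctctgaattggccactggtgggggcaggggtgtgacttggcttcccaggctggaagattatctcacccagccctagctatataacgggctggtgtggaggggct
Cyr61, chr3:145649986-145650235, minus strand: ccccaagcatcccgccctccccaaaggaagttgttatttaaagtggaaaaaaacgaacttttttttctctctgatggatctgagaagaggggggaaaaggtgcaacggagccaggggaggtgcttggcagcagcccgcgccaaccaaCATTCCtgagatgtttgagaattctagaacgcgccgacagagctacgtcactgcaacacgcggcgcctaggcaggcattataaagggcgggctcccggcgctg
Amotl2, chr9:102717554-102717803, plus strand: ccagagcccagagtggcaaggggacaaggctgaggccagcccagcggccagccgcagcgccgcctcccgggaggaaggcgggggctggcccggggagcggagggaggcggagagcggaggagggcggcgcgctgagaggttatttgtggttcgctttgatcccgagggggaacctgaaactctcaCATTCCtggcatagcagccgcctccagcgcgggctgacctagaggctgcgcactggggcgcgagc
Wwtr1, chr3:57575911-57576160, minus strand: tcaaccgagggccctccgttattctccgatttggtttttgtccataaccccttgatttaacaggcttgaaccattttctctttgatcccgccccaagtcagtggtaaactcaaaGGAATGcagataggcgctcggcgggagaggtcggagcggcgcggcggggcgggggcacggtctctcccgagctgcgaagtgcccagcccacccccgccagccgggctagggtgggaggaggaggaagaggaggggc
The motifs of *Ankrd1* began 210 and 123 bases before the start, that of *Cyr61* 103 bases, that of *Amotl2* 65 bases and that of *Wwtr1* 136 bases. *Wwtr1* had another promoter entry, not shown, in which the same motif began 170 bases before the start. In *Yap1* and *Vgll3* the motif began 141 and 63 bases before the start.

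The order of the 10 genes was compared per length, as CPM per kilobase of exon in the mm9 annotation. In 168FARN WT, *Cyr61* had the highest level (117 CPM per kb), followed by *Wwtr1* (74.8) and *Ankrd1* (38.8), and *Ctgf* had the lowest (0.292). In 67NR WT, *Ankrd1* (311 CPM per kb), *Cyr61* (303) and *Ctgf* (165) were the highest 3, and *Tead4* was the lowest (1.24). Of both coactivators, *Wwtr1* was above *Yap1* per length in all 6 groups, at 74.8 against 13.4 CPM per kb in 168FARN WT and 88.3 against 25.4 in 67NR WT. *Ctgf*, which encodes a secreted matricellular protein, stood at rank 3 in one WT line and at rank 10 in the other. In 67NR, *Ctgf* was at rank 7 in both KO groups (8.56 CPM per kb for *Kmt2c* KO and 15.5 for *Kmt2d* KO).

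Across the 6 groups, each gene had its own order of mean CPM. *Yap1* and *Ctgf* were highest in 67NR WT, then in 67NR *Kmt2d* KO and *Kmt2c* KO, and lowest in the 3 groups of 168FARN. For both, 67NR WT did not overlap the next group and the lowest 67NR group did not overlap 168FARN, while both 67NR KOs overlapped each other in *Yap1* and in *Ctgf*, and so did neighbours within 168FARN. *Wwtr1* and *Tead1* were highest in the KOs of 67NR, which overlapped each other and stood clear of 67NR WT, the next in order. *Amotl2* was highest in 67NR WT, which did not overlap the next group, and *Cyr61* was higher in the 3 groups of 67NR, which did not overlap the highest group of 168FARN. *Tead4* was higher in the 3 groups of 168FARN, and its lowest 168FARN group did not overlap the highest 67NR group. For *Ankrd1*, *Lats2* and *Vgll3*, every pair of neighbours in the order overlapped.

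**Figure D1:**
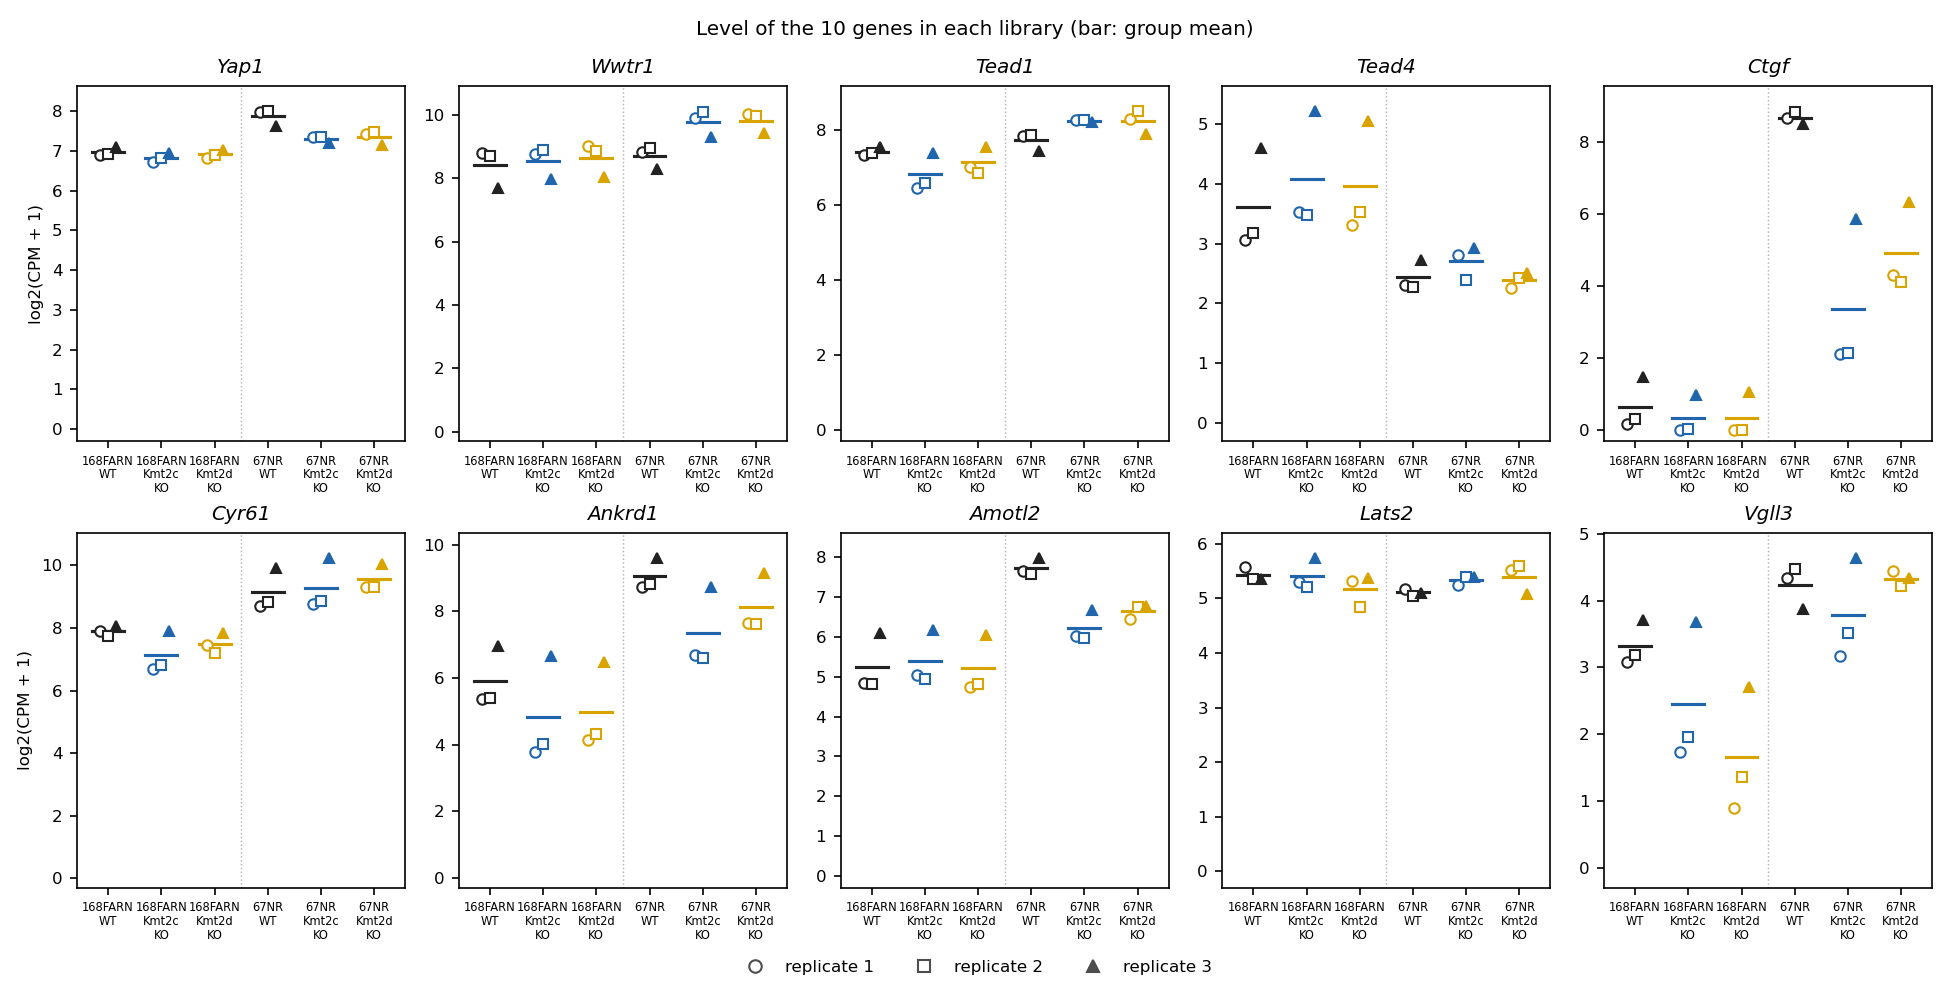
Level of each of the 10 genes, as log2(CPM + 1), in the 18 libraries. Circles, squares and triangles are replicates 1, 2 and 3, bars are group means, and black, blue and yellow mark WT, *Kmt2c* KO and *Kmt2d* KO. *Ctgf* reaches 362 to 462 CPM in 67NR WT and at most 1.81 CPM in 168FARN, and replicate 3 of *Ankrd1* lies above both other replicates in all 6 groups.

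In WT cells, 4 of the target genes and *Yap1* were higher in 67NR than in 168FARN, and *Tead4* was lower. In 67NR WT against 168FARN WT, 6 of the 10 genes passed the test, 5 higher and 1 lower, where 39.2% of the 13882 genes passed (22.3% higher and 16.9% lower). To pass, a gene needed an adjusted p below 0.1 in edgeR's quasi-likelihood test and a log2 fold change beyond 0.6 in either direction. The median log2 fold change was 0.94 over the 10 genes and 0.03 over all genes. The line cannot be told apart from anything else that differed between these cells, such as the control sgRNA. In bulk RNA, fewer cells that express a gene and less RNA per cell cannot be told apart.

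*Ctgf* (chromosome 10, 24315248 to 24318489 in mm9) had 405, 462 and 362 CPM in replicates 1, 2 and 3 of 67NR WT. In 168FARN WT it had 0.133, 0.238 and 1.81 CPM, from 4, 8 and 78 counts. The groups were far apart, with a log2 fold change of 9.07 ± 1.73 (SE, adjusted p = 0.00062), and the 168FARN side rests on so few counts that the size of this fold is imprecise. *Ankrd1* (chromosome 19, 36186455 to 36194334), which encodes an ankyrin repeat protein, had 426, 449 and 773 CPM in 67NR WT and 40.2, 41.3 and 124 CPM in 168FARN WT (8.01-fold, with an SE of 0.93 on the log2 scale, adjusted p = 0.0188). *Amotl2* (chromosome 9, 102619002 to 102635748), an angiomotin family member that holds YAP at cell junctions, had 200, 190 and 251 CPM in 67NR WT and 27.5, 27.0 and 68.0 CPM in 168FARN WT (log2 fold change 2.38 ± 0.45, adjusted p = 0.00059). For all 3 genes, the lowest 67NR WT library was above the highest 168FARN WT library. In all, 8 of the 10 genes did not overlap between the WT groups, 6 above and 2 below, where 46.6% of all genes did not.

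*Cyr61* (chromosome 3, 145309935 to 145312949), a secreted relative of *Ctgf*, had 420, 456 and 969 CPM in 67NR WT against 237, 212 and 265 CPM in 168FARN WT (log2 fold change 1.36 ± 0.44, adjusted p = 0.0244). This call was lost without replicate 3 of 67NR WT (log2 fold change 0.88, adjusted p = 0.132). *Yap1* (chromosome 9, 7931999 to 8004596) had 253, 254 and 198 CPM in 67NR WT against 118, 119 and 135 CPM in 168FARN WT (log2 fold change 0.92 ± 0.15, adjusted p = 0.00016). *Tead4* (chromosome 6, 128174306 to 128250841) ran the other way, with 3.96, 3.85 and 5.58 CPM in 67NR WT against 7.33, 8.04 and 23.2 CPM in 168FARN WT (log2 fold change -1.53 ± 0.58, adjusted p = 0.0484). The call of *Tead4* was lost without replicate 3 of 168FARN WT (log2 fold change -0.85) and without replicate 1 or 2 of 67NR WT (-1.46 and -1.44). *Vgll3* (chromosome 16, 65815878 to 65863302) had 19.2, 21.3 and 13.7 CPM in 67NR WT and 7.43, 8.10 and 12.1 CPM in 168FARN WT, groups that did not overlap. Its log2 fold change of 0.97 ± 0.64 did not pass (adjusted p = 0.263), and with the replicate number in the model it passed at 1.54 ± 0.49 (adjusted p = 0.0159), where 52.5% of all genes passed. *Wwtr1*, *Tead1* and *Lats2* did not pass in WT cells with or without the replicate number.

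In 67NR, TAZ mRNA was higher and *Ctgf* and *Amotl2* mRNA lower in both KO groups than in WT. In *Kmt2c* KO, 3 of the 10 genes passed the test, 1 higher and 2 lower, where 35.3% of the 13662 genes passed (17.9% higher and 17.4% lower). In *Kmt2d* KO, 3 of the 10 genes passed, again 1 higher and 2 lower, where 25.5% of the genes passed (13.9% higher and 11.6% lower). The shares among the 10 genes are thus near those of all genes. Both comparisons share the WT libraries. The median log2 fold change over the 10 genes was -0.09 for *Kmt2c* KO and 0.01 for *Kmt2d* KO, against -0.02 over all genes in both.

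*Wwtr1* (chromosome 3, 57259571 to 57379832) had 459, 497 and 310 CPM in 67NR WT. It had 959, 1102 and 634 CPM in the *Kmt2c* KO cells and 1044, 992 and 688 CPM in *Kmt2d* KO. Every KO library was above every WT library, and the log2 fold change was 1.09 ± 0.27 in *Kmt2c* KO (adjusted p = 0.0132) and 1.11 ± 0.27 in *Kmt2d* KO (adjusted p = 0.0181). *Yap1*, its paralogue, was 253, 254 and 198 CPM in the WT cells, 163, 162 and 145 CPM in the *Kmt2c* KO cells and 172, 176 and 141 CPM in *Kmt2d* KO. The KO libraries of *Yap1* were all below the WT libraries, but the log2 fold changes of -0.59 ± 0.16 (adjusted p = 0.0174) and -0.53 ± 0.16 (adjusted p = 0.0385) were smaller than the 0.6 required. Without replicate 3 of 67NR WT both exceeded it (-0.70 and -0.64), as did that of *Kmt2c* KO without its replicate 1 or 2 (-0.62 and -0.63).

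*Tead1* (chromosome 7, 119822832 to 120050319), whose mean level per length was above that of *Tead4* in all 6 groups, had 229, 233 and 172 CPM in 67NR WT. It had 305, 306 and 296 CPM in the *Kmt2c* KO cells and 311, 359 and 237 CPM in *Kmt2d* KO. The KO libraries were all above WT, with log2 fold changes of 0.52 ± 0.19 in each KO (adjusted p = 0.0591 and 0.0791), which were also under the size required. Without replicate 3 of *Kmt2d* KO that of *Kmt2d* KO passed both thresholds (log2 fold change 0.68). *Tead4* was low in 67NR, at 3.96, 3.85 and 5.58 CPM in the WT cells, 6.01, 4.22 and 6.56 CPM in the *Kmt2c* KO cells and 3.78, 4.35 and 4.69 CPM in *Kmt2d* KO, and the groups overlapped.

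*Ctgf* showed the largest difference among the 10 genes in 67NR. The level fell from 405, 462 and 362 CPM in WT to 3.38, 3.46 and 57.1 in the *Kmt2c* KO cells and 19.0, 16.3 and 80.5 CPM in *Kmt2d* KO. No KO library overlapped WT, and the log2 fold change was -4.27 ± 1.18 in *Kmt2c* KO (adjusted p = 0.0209) and -3.41 ± 1.13 in *Kmt2d* KO (adjusted p = 0.0590). The size of the difference varied with the replicate number: on the log2(CPM + 1) scale, *Kmt2c* KO minus WT was -6.53, -6.70 and -2.64 in replicates 1, 2 and 3, and *Kmt2d* KO minus WT was -4.35, -4.74 and -2.15. With the replicate number in the model both passed, at -5.63 ± 1.15 (adjusted p = 0.0130) and -4.18 ± 1.03 (adjusted p = 0.0297). In the model without it, the *Kmt2d* KO call was lost on leaving out replicate 1 or 2 of either group (log2 fold change between -3.41 and -3.04).

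*Amotl2* was lower in both KO groups and varied less. It had 200, 190 and 251 CPM in the WT cells, 64.0, 61.5 and 102 CPM in the *Kmt2c* KO cells and 86.3, 106 and 108 CPM in *Kmt2d* KO. The groups did not overlap, the log2 fold change was -1.50 ± 0.23 (adjusted p = 0.00094) and -1.09 ± 0.22 (adjusted p = 0.0076), and both calls held on leaving out each library in turn. *Ankrd1* had 426, 449 and 773 CPM in the WT cells, 102, 96.9 and 423 CPM in the *Kmt2c* KO cells and 201, 195 and 570 CPM in *Kmt2d* KO. The *Kmt2c* KO libraries of *Ankrd1* were below WT, those of *Kmt2d* KO overlapped WT through replicate 3, and neither passed (log2 fold change -1.41 ± 0.64 with adjusted p = 0.125, and -0.77 ± 0.63 with adjusted p = 0.440). Compared within a replicate number, *Ankrd1* was lower in KO than in WT in 3 of 3 numbers for both KOs. With the number in the model it passed in both, at -1.72 ± 0.22 (adjusted p = 6.7e-05) and -0.94 ± 0.21 (adjusted p = 0.0048).

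*Cyr61* did not follow *Ctgf* in 67NR, although both are CCN family genes. It had 420, 456 and 969 CPM in the WT cells, 431, 460 and 1197 CPM in the *Kmt2c* KO cells and 638, 627 and 1050 CPM in *Kmt2d* KO. The groups overlapped, and neither comparison passed (adjusted p = 0.807 and 0.677). *Lats2* (chromosome 14, 58260914 to 58377225), the kinase that phosphorylates YAP and TAZ, had the narrowest range of group means of the 10 genes over the 6 groups (0.32 on the log2(CPM + 1) scale), with 35.0, 32.1 and 33.4 CPM in the WT cells, 36.9, 40.7 and 41.0 CPM in the *Kmt2c* KO cells and 45.0, 47.0 and 32.9 CPM in *Kmt2d* KO. Its log2 fold changes of 0.24 ± 0.16 and 0.31 ± 0.16 did not pass (adjusted p = 0.297 and 0.205). In the mm9 annotation *Lats2* overlaps *Xpo4* on the same strand, so some of its counts are uncertain. *Vgll3* had 19.2, 21.3 and 13.7 CPM in the WT cells, 8.04, 10.5 and 24.0 CPM in the *Kmt2c* KO cells and 20.6, 17.6 and 19.2 CPM in *Kmt2d* KO. In *Kmt2c* KO it was below WT in replicates 1 and 2 and above it in replicate 3, and its log2 fold change of -0.35 ± 0.37 did not pass (adjusted p = 0.517). Without replicate 3 of 67NR *Kmt2c* KO, *Vgll3* (log2 fold change -0.96) and *Ankrd1* (-2.46) passed as well. This raised the count of genes called from 3 to 5, where 4581 of 13967 genes passed.

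With the replicate number in the model, the count of genes called in 67NR was 4 in *Kmt2c* KO (41.2% of all genes) and 4 in *Kmt2d* KO (32.7% of all genes), through the addition of *Ankrd1*. In all, 7 of the 10 genes did not overlap WT in *Kmt2c* KO, 3 above and 4 below, where 47.3% of all genes did not overlap. In *Kmt2d* KO, 5 of the 10 did not overlap, 2 above and 3 below, where 38.1% of all genes did not. Summed markers of cell state moved with the same groups in 67NR. The 8 epithelial markers, of which 7 were over 1 CPM and *Krt5* was at 0, summed to between 2055 and 3452 CPM in the WT cells, 452 and 777 CPM in the *Kmt2c* KO cells and 777 and 1547 CPM in *Kmt2d* KO. The 7 fibroblast or mesenchymal markers summed to between 270 and 1291 CPM in the WT cells, 2901 and 4525 CPM in the *Kmt2c* KO cells and 2168 and 4214 CPM in *Kmt2d* KO. Most of the fibroblast or mesenchymal sum was *Vim*, with a mean of 602 CPM in the WT cells, 3257 CPM for *Kmt2c* KO and 2743 CPM for *Kmt2d* KO. The means of *Pdgfra*, *Pdgfrb*, *Dcn* and *Lum* were also higher in both KOs, and those of *Col1a1* and *Col1a2* were lower in both. The part of these markers in the differences of *Wwtr1*, *Ctgf*, *Ankrd1* and *Amotl2* was not tested.

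**Figure D2:**
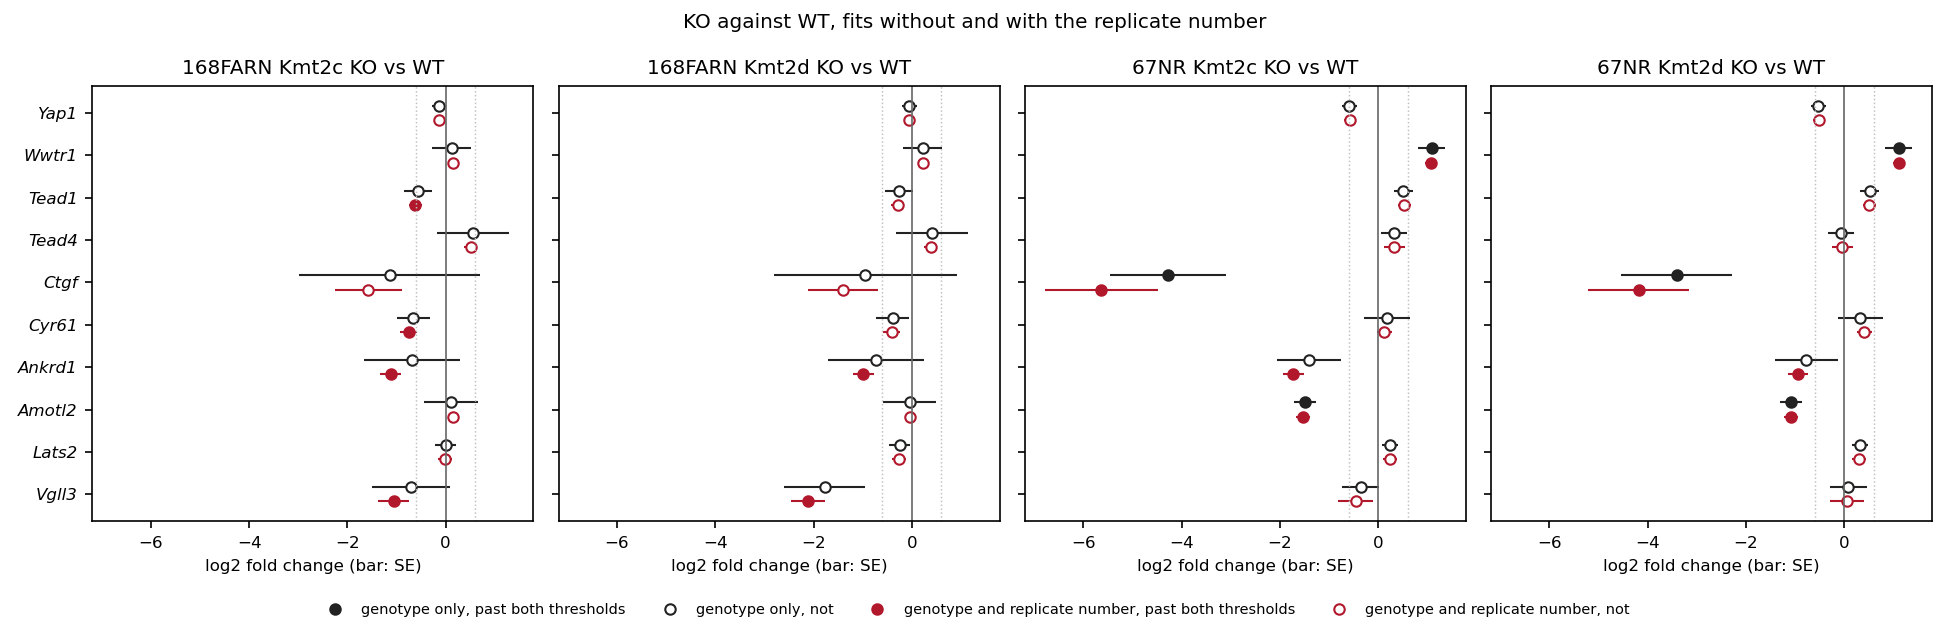
Log2 fold change of each gene in KO against WT, with bars of 1 SE, in the model of genotype only (black) and of genotype and replicate number (red). Filled points passed both thresholds and dotted lines stand at 0.6 in either direction. In 168FARN no black point is filled, and *Tead1*, *Cyr61*, *Ankrd1* and *Vgll3* are filled red in *Kmt2c* KO. In 67NR *Wwtr1*, *Ctgf* and *Amotl2* are filled in both models.

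In 168FARN, whether any of the 10 genes passed depended on the replicate number. With genotype as the only factor, 0 of the 10 genes passed edgeR's test in *Kmt2c* KO, in *Kmt2d* KO or between them, where 0.359%, 0.286% and 0.253% of the 12253 genes passed. DESeq2 called 0 of the 10 in each as well, where it called 2.35%, 2.02% and 1.92% of the genes, and 0 had an unadjusted p under 0.05. With the replicate number in the model, 4 genes were called lower in *Kmt2c* KO (7.23% of all genes called, 3.57% lower) and 2 lower in *Kmt2d* KO (5.90% of all genes called, 3.17% lower). Both comparisons share the WT libraries. The median log2 fold change over the 10 genes without the replicate number was -0.35 for *Kmt2c* KO and -0.25 for *Kmt2d* KO, against 0.01 over all genes in both.

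*Ankrd1* had 40.2, 41.3 and 124 CPM in 168FARN WT, 12.8, 15.1 and 100.4 CPM in the *Kmt2c* KO cells and 16.5, 19.1 and 87.5 CPM in *Kmt2d* KO. Replicates 1 and 2 of both KOs were below all WT libraries, replicate 3 of both was above replicates 1 and 2 of WT, and the groups overlapped. The log2 fold change without the replicate number was -0.68 ± 0.98 for *Kmt2c* KO and -0.74 ± 0.98 for *Kmt2d* KO, neither of which passed (adjusted p = 1.0 for both). Without replicate 3 of 168FARN WT, the signs turned (0.094 and 0.014). Within a replicate number *Ankrd1* was lower in KO in 3 of 3 for both KOs, and with the number in the model the log2 fold change was -1.12 ± 0.21 (adjusted p = 0.0110) and -0.99 ± 0.22 (adjusted p = 0.0240). *Vgll3* had 7.43, 8.10 and 12.1 CPM in the WT cells, 2.31, 2.90 and 11.8 CPM in the *Kmt2c* KO cells and 0.866, 1.55 and 5.55 CPM in *Kmt2d* KO. Its *Kmt2d* KO libraries were all below WT, the 1 gene of the 10 whose groups did not overlap in 168FARN (10.6% of all genes did not overlap in that comparison, and 11.0% in *Kmt2c* KO, where 0 of the 10 genes stood apart). Without the replicate number neither comparison passed (log2 fold change -0.70 ± 0.80 and -1.78 ± 0.82, adjusted p = 1.0 for both). With it, both did, at -1.06 ± 0.31 (adjusted p = 0.0548) and -2.12 ± 0.35 (adjusted p = 0.0047).

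*Cyr61* had 237, 212 and 265 CPM in 168FARN WT, 102, 113 and 237 CPM in the *Kmt2c* KO cells and 174, 147 and 226 CPM in *Kmt2d* KO. Replicates 1 and 2 of both KOs were below all WT libraries, and replicate 3 lay within the WT range. The log2 fold change was -0.66 ± 0.33 in *Kmt2c* KO (adjusted p = 0.966), and -0.75 ± 0.17 with the replicate number in the model (adjusted p = 0.0164). In *Kmt2d* KO it was -0.39 ± 0.33 and did not pass in either model (adjusted p = 1.0 without and 0.166 with the replicate number). *Tead1* had 161, 166 and 185 CPM in the WT cells, 86.8, 95.3 and 166 CPM in the *Kmt2c* KO cells and 129, 115 and 185 CPM in *Kmt2d* KO. Its log2 fold change in *Kmt2c* KO was -0.56 ± 0.29 (adjusted p = 0.981), and -0.62 ± 0.14 with the replicate number (adjusted p = 0.0155). In *Kmt2d* KO it was -0.25 ± 0.29 and did not pass in either model. The sum of the 7 fibroblast or mesenchymal markers moved with genotype in 168FARN too. It was 5833 to 6422 CPM in the WT cells, 7900 to 8438 CPM in the *Kmt2c* KO cells and 7655 to 8953 CPM in *Kmt2d* KO. Neither KO overlapped WT. Most of this sum was *Vim*, with a mean of 6080 CPM in the WT cells, 7954 CPM for *Kmt2c* KO and 8189 CPM for *Kmt2d* KO. The means of *Pdgfra* and *Dcn* were also higher in both KOs. Those of *Col1a1* and *Col1a2* were lower in both, and *Pdgfrb* and *Lum* differed in direction between the KOs. The 5 endothelial markers summed to 0.834 to 1.25 CPM in the WT cells and 4.64 to 5.21 CPM in the *Kmt2c* KO cells, with *Kdr* and *Emcn* at 0 in both. For *Kmt2d* KO the sum was not raised, at 0.636 to 1.04 CPM. The higher sum of *Kmt2c* KO came almost only from *Cdh5*, whose mean was 4.65 CPM there against 0.756 CPM for WT. Mean *Pecam1* was 0.151 against 0.0862 CPM, and mean *Tek* was lower than WT (0.139 against 0.219 CPM). The part of these markers in the values of *Ankrd1*, *Vgll3*, *Cyr61* and *Tead1* was not tested.

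The other 5 genes measured in 168FARN above the level of a few counts did not pass in either KO, with or without the replicate number. *Yap1* had 118, 119 and 135 CPM in the WT cells, 104, 113 and 122 CPM in the *Kmt2c* KO cells and 112, 118 and 130 CPM in *Kmt2d* KO (log2 fold change -0.14 ± 0.14 in *Kmt2c* KO). *Wwtr1* had 447, 418 and 208 CPM in the WT cells, 437, 476 and 254 CPM in the *Kmt2c* KO cells and 518, 469 and 262 CPM in *Kmt2d* KO. The groups of *Yap1* and *Wwtr1* overlapped. *Tead4* had 7.33, 8.04 and 23.2 CPM in the WT cells, 10.5, 10.2 and 36.1 CPM in the *Kmt2c* KO cells and 8.96, 10.5 and 32.0 CPM in *Kmt2d* KO. *Amotl2* had 27.5, 27.0 and 68.0 CPM in the WT cells, 32.1, 29.9 and 70.7 CPM in the *Kmt2c* KO cells and 25.6, 27.4 and 65.5 CPM in *Kmt2d* KO. For *Tead4* and *Amotl2* the step between replicates 1 and 2 and replicate 3 exceeded every step between genotypes. *Lats2* had 46.8, 40.1 and 39.6 CPM in the WT cells, 38.3, 36.0 and 52.5 CPM in the *Kmt2c* KO cells and 38.7, 27.5 and 40.3 CPM in *Kmt2d* KO. *Ctgf* had 4, 8 and 78 counts in WT, 0, 1 and 36 counts in *Kmt2c* KO and 0, 0 and 29 counts in *Kmt2d* KO, so most of its counts in 168FARN came from replicate 3 and no fold change is given.

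The question whether a KO acted differently in the lines was put to all 18 libraries, as the difference between the KO effects of 67NR and 168FARN. For *Kmt2c* KO, 2 of the 10 genes passed, 1 higher and 1 lower, where 16.0% of all genes passed (8.49% higher and 7.55% lower). *Tead1* differed by 0.99 ± 0.35 on the log2 scale (adjusted p = 0.0861), with KO means of 302 CPM against 211 CPM in WT in 67NR and 116 CPM against 171 CPM in 168FARN. *Amotl2* differed by -1.69 ± 0.61 (adjusted p = 0.0911), with means of 75.8 CPM in KO against 214 CPM in WT in 67NR and 44.2 CPM against 40.8 CPM in 168FARN. These calls held in 5 and 4 of the 12 fits that left out a library. That of *Tead1* was lost without replicate 1 or 2 of 168FARN *Kmt2c* KO, any replicate of 67NR WT, or replicate 1 or 2 of 67NR *Kmt2c* KO (difference between 0.86 and 1.06). That of *Amotl2* was lost without replicate 1 or 2 of 168FARN WT, replicate 3 of 168FARN *Kmt2c* KO, any replicate of 67NR WT, or replicate 1 or 2 of 67NR *Kmt2c* KO (difference between -1.78 and -1.11). *Yap1* passed for both KOs without replicate 3 of 67NR WT (-0.64 for *Kmt2c* KO and -0.65 for *Kmt2d* KO), and *Tead1* (1.00) and *Vgll3* (3.04) passed for *Kmt2d* KO without replicate 3 of 168FARN *Kmt2d* KO. *Ctgf*, with its few counts in 168FARN, differed by -3.19 ± 1.98 for *Kmt2c* KO and by -2.59 ± 2.03 for *Kmt2d* KO, and neither passed (adjusted p = 0.377 and 0.585). Its difference for *Kmt2c* KO passed without replicate 3 of 67NR *Kmt2c* KO (-5.72, adjusted p = 0.0684), and its sign turned without replicate 3 of the 168FARN KO (1.19 for *Kmt2c* KO and 4.74 for *Kmt2d* KO). For *Kmt2d* KO 0 of the 10 genes passed in edgeR's test and in DESeq2, where 10.6% of all genes passed in edgeR and 14.4% in DESeq2, and 1 gene (*Yap1*) had an unadjusted p under 0.05.

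With the replicate number in the model, 4 genes differed for *Kmt2c* KO (34.6% of all genes) and 5 for *Kmt2d* KO (28.4% of all genes). *Wwtr1* then differed by 0.85 ± 0.16 for *Kmt2c* KO (adjusted p = 0.00041) and by 0.81 ± 0.16 for *Kmt2d* KO (adjusted p = 0.00089). Without the number its differences were 0.89 ± 0.50 and 0.83 ± 0.50 and did not pass. *Tead1* differed by 1.07 ± 0.20 for *Kmt2c* KO (adjusted p = 0.00046) and 0.74 ± 0.20 for *Kmt2d* KO (adjusted p = 0.0101), and *Amotl2* by -1.74 ± 0.17 (adjusted p = 5.1e-07) and -1.10 ± 0.17 (adjusted p = 0.00014). *Cyr61* differed by 0.80 ± 0.24 (adjusted p = 0.0165) and 0.76 ± 0.24 (adjusted p = 0.0264), with log2 fold changes below 0 in 168FARN only. *Vgll3* differed for *Kmt2d* KO, by 2.11 ± 0.59 (adjusted p = 0.0160). *Ankrd1*, which was lower in both KOs of both lines within each replicate number, did not pass the test of a difference between the lines (-0.68 ± 0.35 for *Kmt2c* KO with adjusted p = 0.148, and -0.01 ± 0.35 for *Kmt2d* KO with adjusted p = 1.0, replicate number in the model).

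The KOs were also set against each other within a line. In 67NR, 0 of the 10 genes passed between *Kmt2c* KO and *Kmt2d* KO in edgeR and in DESeq2, where 1.41% of all genes passed in edgeR and 4.38% in DESeq2, and 0 had an unadjusted p under 0.05. *Ankrd1* was lower in *Kmt2c* KO cells than in *Kmt2d* KO cells in 3 of 3 replicate numbers, and with the number in the model it passed (log2 fold change -0.78 ± 0.21, adjusted p = 0.0562), where 7.28% of all genes passed. *Ctgf* and *Amotl2* were also lower in *Kmt2c* KO cells than in *Kmt2d* KO cells in 3 of 3 replicate numbers, but passed in neither model. In edgeR without the number, their log2 fold changes were -0.86 ± 1.04 and -0.40 ± 0.22 (adjusted p = 0.852 and 0.572). The levels of *Ctgf* in replicate 3 (57.1 and 80.5 CPM) lay above those of replicates 1 and 2 of either KO.

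Replicate 3 stood apart from replicates 1 and 2 for most of the 10 genes. *Wwtr1* was lower in replicate 3 than in the mean of replicates 1 and 2 in 6 of 6 groups, at a ratio of 0.481 to 0.676. *Ankrd1* was higher in 6 of 6 groups, at a ratio of 1.77 to 7.19, and so were *Tead4* (1.15 to 3.49), *Cyr61* (1.18 to 2.69) and *Amotl2* (1.12 to 2.49). *Ctgf* was higher in 5 of 6 groups and lower in 67NR WT, at a ratio of 0.834. *Yap1* moved little and in opposite directions by line, with ratios of 1.13 to 1.14 in 168FARN and 0.780 to 0.893 in 67NR. *Wwtr1* thus moved opposite to the target genes *Cyr61*, *Ankrd1* and *Amotl2* between these libraries. What set replicate 3 apart is not given in the labels, and the collections of cells for the replicates were treated as batches in the methods of the study.

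**Figure D3:**
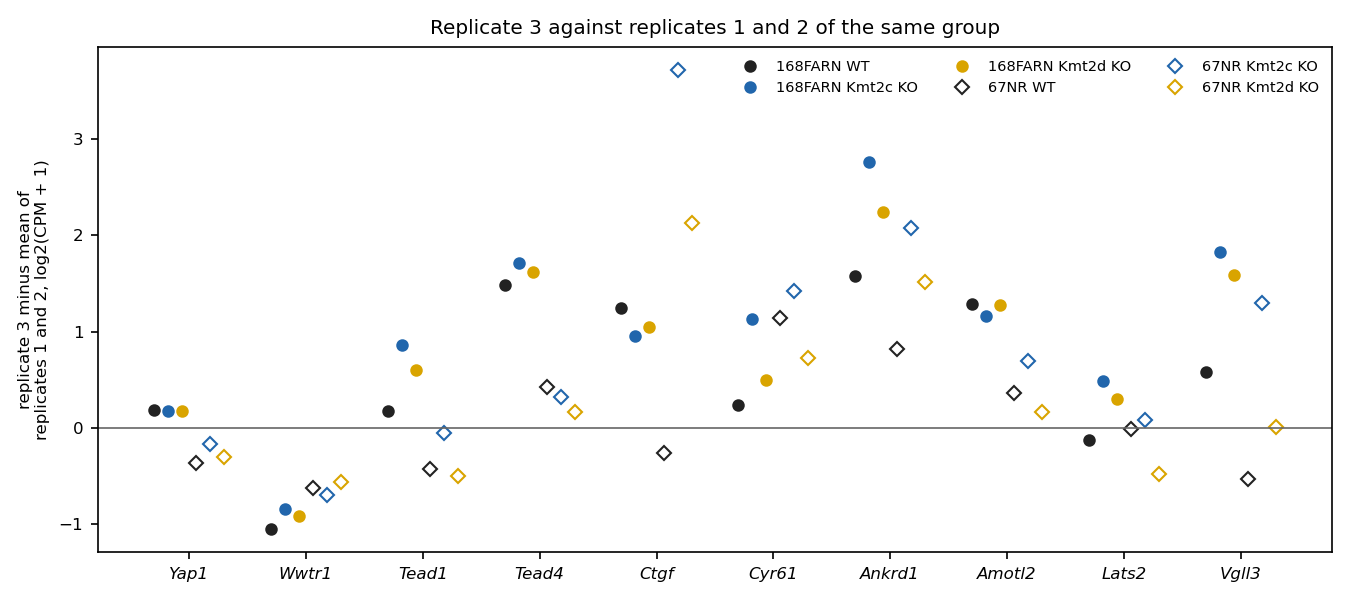
Level of replicate 3 minus the mean of replicates 1 and 2 of the same group, on the log2(CPM + 1) scale, for each gene. Filled circles are 168FARN groups and open diamonds 67NR groups, with black, blue and yellow for WT, *Kmt2c* KO and *Kmt2d* KO. All 6 points of *Wwtr1* lie below 0, and all 6 points of *Tead4*, *Cyr61*, *Ankrd1* and *Amotl2* lie above it.

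The rest of the pathway was followed in 44 genes in 4 lists, of which 36 were tested in each line. In 67NR, 9 rose and 13 fell in *Kmt2c* KO, and 6 rose and 10 fell in *Kmt2d* KO, where 35.3% of all genes passed in *Kmt2c* KO (17.9% higher and 17.4% lower) and 25.5% in *Kmt2d* KO (13.9% higher and 11.6% lower). The median log2 fold change over the 36 genes was -0.41 and -0.21, against -0.02 over all genes in both. Of the 6 core kinases and their adaptors, *Mob1b* rose and *Stk3* and *Lats1* fell in *Kmt2c* KO, and *Mob1b* rose and *Stk3* fell in *Kmt2d* KO. *Stk3*, which encodes the kinase MST2, had a mean of 256 CPM in the WT cells, 132 CPM in the *Kmt2c* KO cells and 160 CPM in *Kmt2d* KO (log2 fold change -0.96 ± 0.22 and -0.68 ± 0.22). *Mob1b*, a LATS adaptor, went from 24.9 CPM to 40.1 and 38.1 CPM (0.69 ± 0.17 and 0.62 ± 0.17). The call of *Stk3* in *Kmt2d* KO was lost without replicate 1 or 2 of 67NR WT or replicate 2 or 3 of *Kmt2d* KO (log2 fold change between -0.69 and -0.52). That of *Mob1b* was lost without replicate 3 of 67NR WT in both KOs, without replicate 2 of *Kmt2c* KO and without replicate 1 of *Kmt2d* KO (between 0.52 and 0.59).

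Of 13 upstream regulators tested, 3 rose and 6 fell in *Kmt2c* KO, and 1 rose and 5 fell in *Kmt2d* KO, beside 35.3% and 25.5% of all genes that passed. *Amot*, the founding angiomotin and a relative of *Amotl2*, fell from a mean of 68.4 CPM in WT to 13.4 in the *Kmt2c* KO cells and 17.5 CPM in *Kmt2d* KO (log2 fold change -2.35 ± 0.26 and -1.97 ± 0.26, adjusted p = 0.00017 and 0.00077). *Ajuba*, a LIM protein that inhibits LATS kinases, fell from 87.7 to 36.4 CPM in *Kmt2c* KO (-1.27 ± 0.16, adjusted p = 0.00030). *Wwc2*, a KIBRA family scaffold that activates LATS kinases, fell from 72.6 to 36.5 CPM in *Kmt2d* KO (-0.99 ± 0.15, adjusted p = 0.0017). The genes that fell thus encode both activators and inhibitors of LATS kinases.

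Of 3 other TEAD and VGLL genes tested, 2 fell in both KOs. *Tead2* fell from a mean of 76.8 CPM in WT to 24.1 in the *Kmt2c* KO cells and 31.1 CPM in *Kmt2d* KO (log2 fold change -1.67 ± 0.18 and -1.30 ± 0.17), and *Tead3* fell from 22.5 CPM to 12.6 CPM in *Kmt2c* KO, with log2 fold changes of -0.83 ± 0.18 and -0.90 ± 0.18. Their directions were opposite to that of *Tead1*, whose KO libraries were all above WT in 67NR. Of 14 other YAP and TAZ target genes tested, 5 rose and 3 fell in *Kmt2c* KO, and 4 rose and 2 fell in *Kmt2d* KO, beside the same 35.3% and 25.5% of all genes, which rose and fell in near-equal shares. *Nuak2*, which encodes a kinase, fell from a mean of 46.0 CPM in WT to 4.53 in the *Kmt2c* KO cells and 8.35 CPM in *Kmt2d* KO (-3.35 ± 0.22 and -2.46 ± 0.21). *Foxf2*, a forkhead factor of mesenchymal cells, rose from 0.435 CPM to 14.9 and 9.60 CPM (5.05 ± 0.41 and 4.42 ± 0.40).

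**Figure D4:**
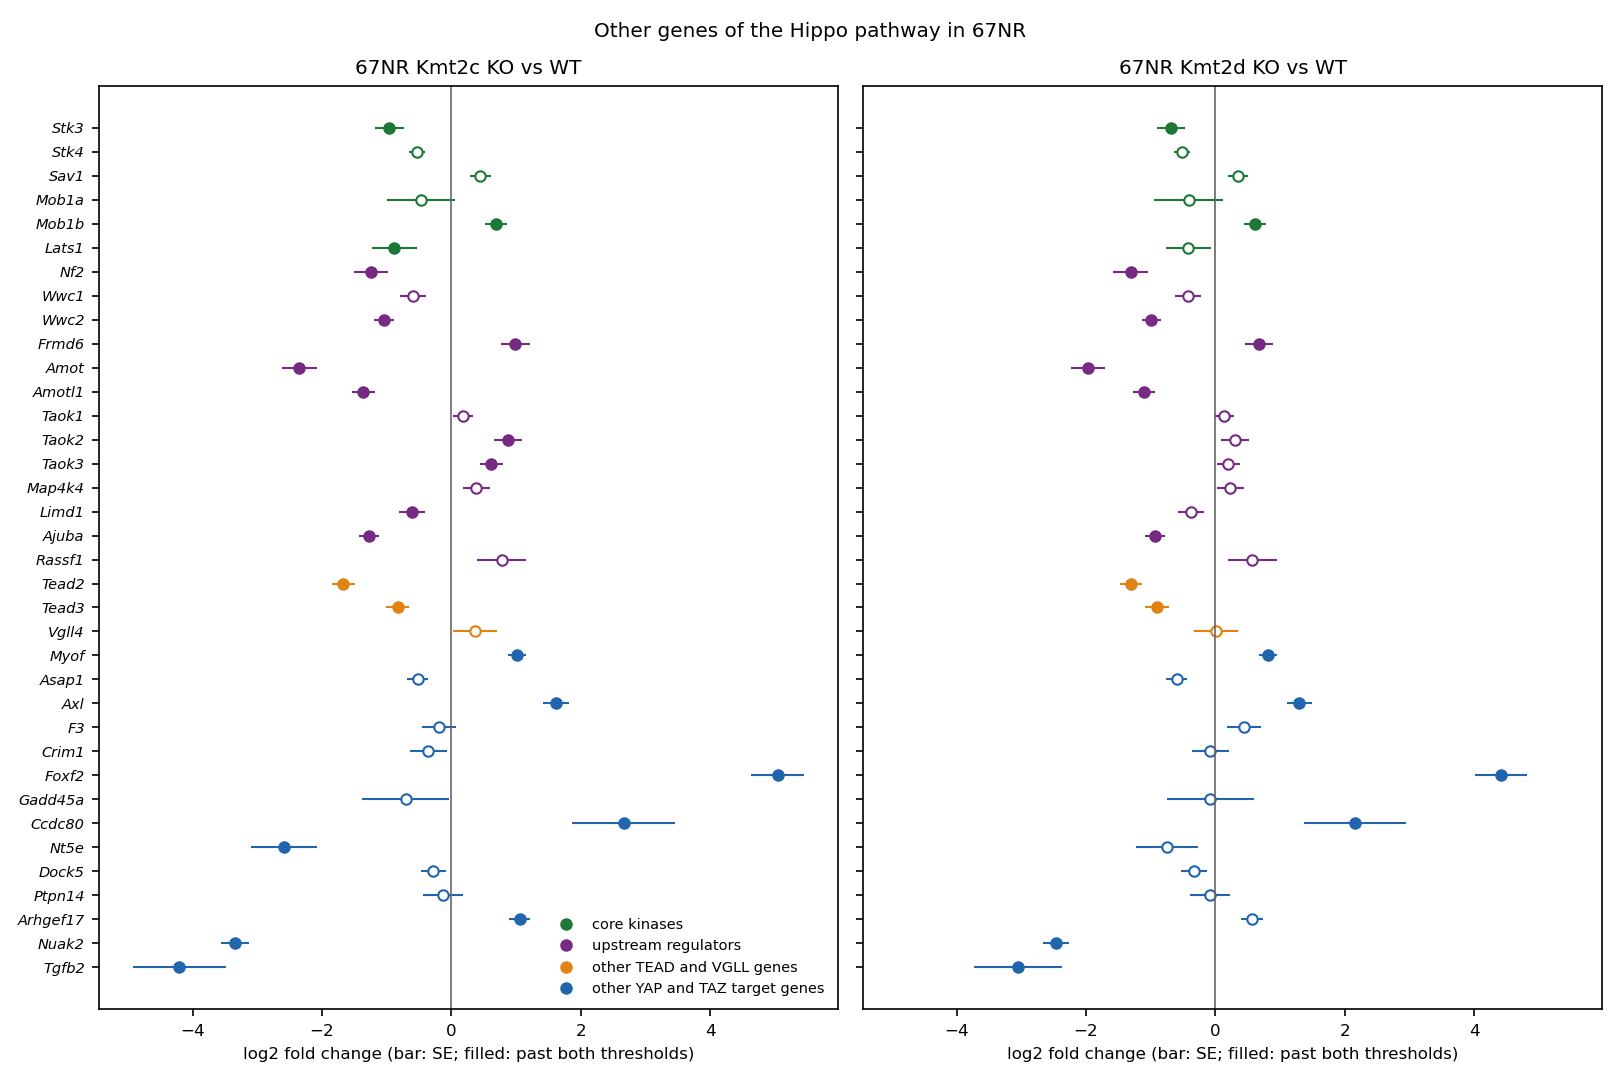
Log2 fold change with bars of 1 SE for the 36 other pathway genes tested in 67NR, in *Kmt2c* KO (left) and *Kmt2d* KO (right) against WT, coloured by list. Filled points passed both thresholds. The target genes spread from *Tgfb2* and *Nuak2* on the lower side to *Foxf2* on the upper side, and *Amot* and *Tead2* are lower in both KOs.

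In 168FARN, 0 of the 36 genes passed in either KO without the replicate number, where 0.359% and 0.286% of all genes passed. With it, where 7.23% and 5.90% of all genes passed, 2 of the 36 passed in each KO, all of them target genes: in *Kmt2c* KO *Nt5e* rose by 1.48 ± 0.25 on the log2 scale (adjusted p = 0.0034) and *Gadd45a* fell by 1.00 ± 0.22 (adjusted p = 0.0169), and in *Kmt2d* KO *Nt5e* rose by 1.40 ± 0.25 (adjusted p = 0.0053) and *Asap1* by 0.78 ± 0.11 (adjusted p = 0.0011). 

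Genes whose pattern over the 18 libraries was most like that of a member were listed for the 5 members whose group means ranged over more than 2 on the log2(CPM + 1) scale. Likeness was the root mean square difference between both patterns after each gene's own mean was subtracted, over 13881 genes. For *Ctgf*, whose group means ranged over 8.34, the nearest were *Prss22* (0.90), *Thbs1* (1.05) and *Fgfbp1* (1.05). For *Ankrd1*, with a range of 4.23, they were *Mum1l1* (0.55), *Sdpr* (0.57) and *Gcnt2* (0.62). For *Amotl2* (range 2.53) they were *Slc25a13* (0.26), *Homer1* (0.29) and *Tirap* (0.32), for *Cyr61* (range 2.41) *Pura* (0.33), *Car13* (0.39) and *Rab32* (0.41), and for *Vgll3* (range 2.67) *Ccdc122* (0.47), *Hif1a* (0.50) and *Anxa3* (0.50). No member was among the 3 nearest genes of another. The patterns were not scaled, so genes with unlike ranges lie far apart even where they rise and fall together. The measure therefore does not show whether the members vary together.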

How the data were processed

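Poly(A) RNA libraries of 18 samples were prepared with the KAPA mRNA HyperPrep kit. According to the methods of the study, the authors aligned reads to mm9 with STAR in the VIPER pipeline and deposited raw read counts per gene symbol, 1 table per line, without normalization. Whether reads were counted by strand is not given in the sources used here, which leaves overlapping genes uncertain: in the mm9 annotation (GENCODE), *Ctgf*, *Tead1*, *Yap1* and *Wwtr1* overlap noncoding genes on the other strand. Columns were assigned to samples by name, with 0 columns left over, and 2 symbols damaged by a spreadsheet were left out.

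From the counts, edgeR 4.0.16 (R 4.3.3) fitted the quasi-likelihood model with robust dispersions, TMM scaling and its filter on low counts by group, on the 9 libraries of a line (12253 genes in 168FARN and 13662 in 67NR), or on all 18 (13882 genes) for WT lines and differences between lines. The Benjamini-Hochberg adjustment ran over all genes of a fit, and calls needed an adjusted p below 0.1 with a log2 fold change beyond 0.6 in either direction. The SE is the log2 fold change divided by the root of the F statistic. CPM plots used a pseudocount of 1. The study fitted genotype in DESeq2 and treated each collection of cells as a batch in its heatmaps. Replicate numbers paired the samples: deviations from group means correlated within a number in all 9 pairs of each line (0.650 to 0.897 in 168FARN and 0.351 to 0.717 in 67NR). Pairs of different numbers spanned -0.825 to 0.728 and -0.603 to 0.523: replicates 1 and 2 deviated together, and against replicate 3, so the number mainly separates replicate 3. Values with the number as a block are printed in the report where they change a call. On simulated counts of the *Kmt2c* KO comparisons, edgeR recovered 12.1% of changes of 1 and 70.4% of changes of 2 on the log2 scale in 168FARN, and 30.0% and 81.8% in 67NR. For the difference between the lines in the *Kmt2c* KO effect it recovered 2.06% and 50.5%. Few genes were changed in the simulation (100 by 1 and 99 by 2 of 13457 in 67NR), whereas 35.3% of genes passed in the measured comparison. Counts were drawn independently for each library, with no shared effect of the replicate number. These shares therefore do not give the power of the tests on the measured counts.

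The 10 genes and the lists of pathway genes and markers were chosen with earlier results of these data known. Named were all 10 genes, for each pathway list the 2 genes with the smallest p among those called in each KO against WT, and the 3 genes most like each member whose group means ranged over more than 2. Other pathway genes named in the text (*Lats1*, *Nt5e*, *Gadd45a*, *Asap1*, *Tgfb2*) were chosen after their values were seen. Alternatives were DESeq2 1.42.0 size factors, DESeq2, no filter on low counts, an adjusted p under 0.05 with no fold threshold, the replicate block, the 6 libraries of a comparison alone, and leaving out each library. Chosen after seeing the data were replicates 1 and 2 alone, scaling to total counts without Rn45s, and DESeq2 with the block.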

Additional observations from a re-analysis of the deposited data

Results flagged for a closer look

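Of the 10 genes, 2 had KO effects that differed between the lines by the test of the difference itself, in edgeR on all 18 libraries without the replicate number. Both were for *Kmt2c* KO, where 16.0% of the 13882 genes passed, so the share among the 10 genes is near that of all genes. The *Kmt2c* KO effect on *Tead1* was higher in 67NR than in 168FARN by 0.99 ± 0.35 on the log2 scale (adjusted p = 0.0861), and that on *Amotl2* was lower by 1.69 (log2 difference -1.69 ± 0.61, adjusted p = 0.0911). These calls held in 5 and 4 of the 12 fits that left out a library, and neither passed at an adjusted p under 0.05. With the replicate number in the model both passed at a smaller adjusted p (0.00046 and 5.1e-07), where 34.6% of all genes passed. Groups of 3 libraries were too small for a search for outlying samples.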

How the results depend on the processing

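With the replicate block, the number of the 10 genes called was 4 in 168FARN *Kmt2c* KO, 2 in 168FARN *Kmt2d* KO, 1 between the KOs of 67NR, and 4 and 5 for the difference between lines of the *Kmt2c* and *Kmt2d* KO effects, against 0, 0, 0, 2 and 0 without it. The block added 1 gene each to the other 67NR comparisons and to the WT lines, and changed no other call. Replicates 1 and 2 alone gave, for these same 5 comparisons, 4, 2, 4, 5 and 6 genes. Over all genes, 1780 and 1346 of 12285, 1743 of 13848, and 5303 and 4539 of 13971 then passed. The same replicates gave 1 gene between the KOs of 168FARN (1141 of 12285 genes) and 6, against 3, in 67NR *Kmt2c* KO (6123 of 13848 genes). DESeq2 with the block gave 5, 2, 1, 5 and 5 genes, and 1 between the KOs of 168FARN (707 of 12253 genes). In the 5 comparisons it called 917 and 797 of 12253 genes, 1211 of 13662, and 4946 and 4070 of 13882. For the difference of the *Kmt2c* KO effect, 0 of the 10 genes passed at an adjusted p under 0.05 (1596 of 13882 genes) or with no filter on low counts (1935 of 18629 genes). Under total counts without Rn45s 1 passed (2135 of 13859 genes), and this scaling moved the median of all genes by 0.148 (0.113 for *Kmt2d* KO). The cause of these changes was not tested. Leaving out each library gave 3 to 5 genes in 67NR *Kmt2c* KO (4225 to 5590 of all genes). For the differences between lines it gave 0 to 3 and 0 to 2 (1702 to 2611 and 1047 to 1569 of all genes). The log2 fold change of *Ankrd1* in 168FARN turned its sign without replicate 3 of WT (-2.29 to 0.094 in *Kmt2c* KO and -1.94 to 0.014 in *Kmt2d* KO). Over all 90 log2 fold changes of the 10 genes and 1434 values under alternatives, the sign turned in 85 values, of which 0 were called in either setting. In 31 values a call was lost and in 77 one was gained. *Ctgf* in 168FARN is limited by depth, with 0 to 78 counts a library.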
